A study of Mus musculus with 12 samples.

Results

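Gata1, an erythroid transcription factor, and a set of genes of red cell development were followed in RNA from sorted neutrophils of mouse bone marrow. The set named 9 genes, grouped as the transcription factors Gata1, Klf1 and Tal1, the receptor Epor, and the red cell products Alas2, Slc4a1, Car2, Hemgn and Ahsp. They were selected on their measured levels, as genes that stood higher as a group in Runx1KO than in Control libraries, so their differences between the genotypes are given as descriptions without a test. Of the 9 names, 8 were matched to a row among the 37310 genes of the table, and all 8 were among the 12917 genes kept for testing; Ahsp was not matched and is not analysed here.

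Read counts came from 12 libraries, 3 in each of 4 groups. Runx1KO neutrophils with vehicle were set against Control neutrophils with vehicle, and Runx1KO neutrophils with lipopolysaccharide (LPS) against Control neutrophils with LPS; LPS, a bacterial cell wall component, was given at 100 ng/mL, and all cells were held in culture medium for 2 h. The mice were of strain C57BL/6. The sorted cells carried Ly6G and CD11b and lacked Siglec F and the Adgre1 protein. The series asks how Runx1, a transcription factor of blood cells, bears on the output of inflammatory cytokines by neutrophils. No age is given in the labels, nor the promoter that drove a recombinase or the part of Runx1 that was removed. The design text describes the Control material as LKS- marrow cells, a progenitor fraction, pooled from a Runx1f/f mouse and a Runx1f/- mouse, whose germline lacks a working copy of Runx1 on a single chromosome. The labels of the Control libraries describe sorted neutrophils instead. Whether the difference between the genotypes is one of Runx1 loss or of starting material cannot be told apart wherever the design text applies.

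Total counts ran from 19023610 to 26225169 per library. The 15 neutrophil markers checked were all measured, and their summed level was 122900 to 158900 CPM (read counts scaled to the size of the library) in Runx1KO vehicle libraries, 166500 to 179900 CPM in Control vehicle libraries, 169300 to 172400 CPM in Runx1KO LPS libraries and 166400 to 195000 CPM in Control LPS libraries. Runx1 itself had 60.5, 68.4 and 75.4 CPM in Runx1KO vehicle libraries against 36.8, 56.2 and 38.7 CPM in Control vehicle libraries, and 58.3, 68.6 and 43.7 CPM in Runx1KO LPS libraries against 32.3, 50.9 and 26.1 CPM in Control LPS libraries. These are counts over the whole gene, and without the position of the deletion they do not check the genotype labels. The libraries numbered 2 in every group had 0 CPM of Xist and 6218 to 8434 Y-linked counts, while the others had 42.4 to 65.7 CPM of Xist and at most 5 Y-linked counts. By these genes the libraries numbered 2 were male and the others female, so number 2 came from other mice than numbers 1 and 3. Whether libraries 1 and 3 of a group are separate mice is not stated in the labels. The p-values here cover only the spread between these libraries, which includes sex and may otherwise be technical.

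A red cell precursor is specified by GATA1, which binds DNA together with TAL1 and its cofactors and turns on the genes of haemoglobin, haem synthesis and the red cell membrane. KLF1, which binds CACCC sites, acts with it at the adult beta-globin gene, and erythropoietin, acting through its receptor on precursors, keeps them alive. GATA1 is used beyond red cells, in megakaryocytes, eosinophils, basophils and mast cells, and neutrophils are not known to depend on it.

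Promoter sequences are shown for 4 members with different roles, because these members differed in how they behaved across libraries and because the motifs of GATA, KLF and RUNX factors can be read in them directly. Each is the 250 bases before the RefSeq gene start, from RefSeq on GRCm38.p6, read 5′ to 3′ on the strand of the gene. They lie at chrX:7967911-7968160 on the minus strand for Gata1, chr8:84901732-84901981 on the plus strand for Klf1, chr9:21963577-21963826 on the minus strand for Epor and chrX:150547167-150547416 on the plus strand for Alas2. Capitals mark the GATA motifs AGATAA and TGATAA, the KLF motif CCNCACCC and the RUNX motif TGTGGT, each searched on both strands.
Gata1: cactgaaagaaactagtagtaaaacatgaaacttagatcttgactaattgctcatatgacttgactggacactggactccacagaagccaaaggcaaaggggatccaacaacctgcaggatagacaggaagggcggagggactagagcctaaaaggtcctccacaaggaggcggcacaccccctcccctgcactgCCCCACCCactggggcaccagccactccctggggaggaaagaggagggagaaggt
Klf1: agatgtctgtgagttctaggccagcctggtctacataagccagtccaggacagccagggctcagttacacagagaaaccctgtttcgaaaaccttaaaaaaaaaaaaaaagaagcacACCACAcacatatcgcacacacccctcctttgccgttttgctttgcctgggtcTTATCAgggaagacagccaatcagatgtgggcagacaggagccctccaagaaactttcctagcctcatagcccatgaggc
Epor: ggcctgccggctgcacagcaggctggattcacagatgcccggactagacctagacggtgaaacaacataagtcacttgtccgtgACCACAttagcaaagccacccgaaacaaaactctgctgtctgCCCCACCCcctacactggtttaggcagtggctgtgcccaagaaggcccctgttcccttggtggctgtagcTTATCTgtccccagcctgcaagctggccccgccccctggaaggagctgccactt
Alas2: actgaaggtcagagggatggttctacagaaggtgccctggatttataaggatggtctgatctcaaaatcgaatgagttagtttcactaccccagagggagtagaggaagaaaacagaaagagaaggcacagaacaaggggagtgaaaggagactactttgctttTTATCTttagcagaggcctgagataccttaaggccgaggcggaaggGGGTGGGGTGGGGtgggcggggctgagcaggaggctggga

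In the Gata1 promoter the search found a single KLF motif, whose leftmost base lies 55 bases before the start, and no GATA or RUNX motif. The Klf1 promoter held a GATA motif 80 bases before the start and a RUNX motif 133 bases before it. The Epor promoter held all 3 kinds, with the GATA motif at 54, the KLF motif at 124 and the RUNX motif at 166 bases before the start. In Alas2 a GATA motif lay 86 bases before the start, and the KLF motif matched at 40 and 35 bases, where the matches overlap each other. The table held 7 promoters for 6 of the members (Tal1 has a pair), and 5 of the 7 held a GATA motif, against 16.6% of 32851 mouse promoters of the same length. The KLF motif stood in 3 of the 7, against 14.86% of all, and the RUNX motif in 2 of the 7, against 14.05% of all. A match describes letters and is not evidence of binding.

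Before the results, the libraries numbered 3 need naming, because the Runx1KO libraries with that number stood apart from the other Runx1KO libraries. Summed over the adult globin genes Hba-a1, Hba-a2, Hbb-bt and Hbb-bs, the level was 1799, 2737 and 211 CPM in Runx1KO vehicle libraries 1, 2 and 3, against 1158, 385 and 282 CPM in Control vehicle libraries. With LPS it was 1936, 3096 and 390 CPM in Runx1KO libraries, against 1258, 439 and 358 CPM in Control libraries. Globin thus stood highest in Runx1KO libraries 1 and 2 and was low in Runx1KO library 3. Each number kept its place within its genotype in both treatments. Globin RNA was present in every library, at 0.0252 to 0.277% of the counts. As an unscaled share of counts, Runx1KO library 3 had 0.0252% with vehicle and 0.0273% with LPS. Control library 3 had 0.0315% and 0.0341%. The higher CPM of Runx1KO library 3 with LPS than with vehicle, and above Control library 3, thus depends on the scaling. In bulk RNA, fewer cells of a type and less RNA per cell cannot be told apart.

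Gata1 was low in all libraries and higher in every Runx1KO library than in any Control library. It had 1.82, 2.26 and 1.65 CPM in Runx1KO vehicle libraries, from 45, 51 and 47 counts, against 0.672, 0.360 and 0.127 CPM in Control vehicle libraries, from 16, 9 and 3 counts. In LPS-treated cells it had 2.65, 2.29 and 1.29 CPM in Runx1KO libraries against 0.601, 0.152 and 0.518 CPM in Control libraries. The lowest Runx1KO value was thus above the highest Control value in both treatments. The group means were 1.91 ± 0.316 CPM in Runx1KO and 0.386 ± 0.274 CPM in Control with vehicle (SD, n = 3 each), a log2 fold change of 2.29 (SE 0.62). With LPS they were 2.08 ± 0.705 CPM in Runx1KO and 0.424 ± 0.239 CPM in Control, a log2 fold change of 2.28 (SE 0.62). Without the libraries numbered 3 the log2 fold change was 2.02 with vehicle and 2.71 with LPS.

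Klf1, the activator of adult beta-globin, had 2.55, 3.68 and 0.421 CPM in Runx1KO vehicle libraries, against 0.882, 0.240 and 0.677 CPM in Control vehicle libraries. In LPS-treated cells it had 2.74, 3.14 and 1.24 CPM in Runx1KO libraries, against 1.35, 0.607 and 0.659 CPM in Control libraries. Runx1KO libraries 1 and 2 were the high ones, and library 3 fell among or below the Control libraries, so the groups overlapped in both treatments. On the log2 scale this was a difference of 1.87 (SE 0.74) with vehicle and of 1.44 (SE 0.73) with LPS; without the libraries numbered 3 it was 2.51 and 1.60.

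Tal1, the basic helix-loop-helix partner of GATA1, had 0.890, 1.20 and 0.736 CPM in Runx1KO vehicle libraries, against 0.588, 0.519 and 0.254 CPM in Control vehicle libraries. After LPS the values were 0.771, 0.494 and 0.506 CPM in Runx1KO libraries, against 0.852, 0.354 and 0.330 CPM in Control libraries. The groups were apart with vehicle and mixed with LPS, where the highest value was that of Control library 1. Its log2 fold change was 1.04 with vehicle (SE 0.54) and 0.21 with LPS (SE 0.55); without the libraries numbered 3 these were 0.95 and 0.08.

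Epor, the erythropoietin receptor gene, was the least counted member in Control, with 2 to 13 counts a library. It had 0.567, 0.887 and 0.596 CPM in Runx1KO vehicle libraries, against 0.546, 0.200 and 0.127 CPM in Control vehicle libraries. After LPS the values were 1.03, 1.75 and 0.169 CPM in Runx1KO libraries, against 0.201, 0.101 and 0.235 CPM in Control libraries. With vehicle the groups were apart by a small margin, while with LPS Runx1KO library 3, with 3 counts, lay within the Control range. With vehicle the log2 fold change was 1.21 (SE 0.78), and after LPS it was 2.43 (SE 0.83), or 0.99 and 3.17 without the libraries numbered 3.

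**Figure D1:**
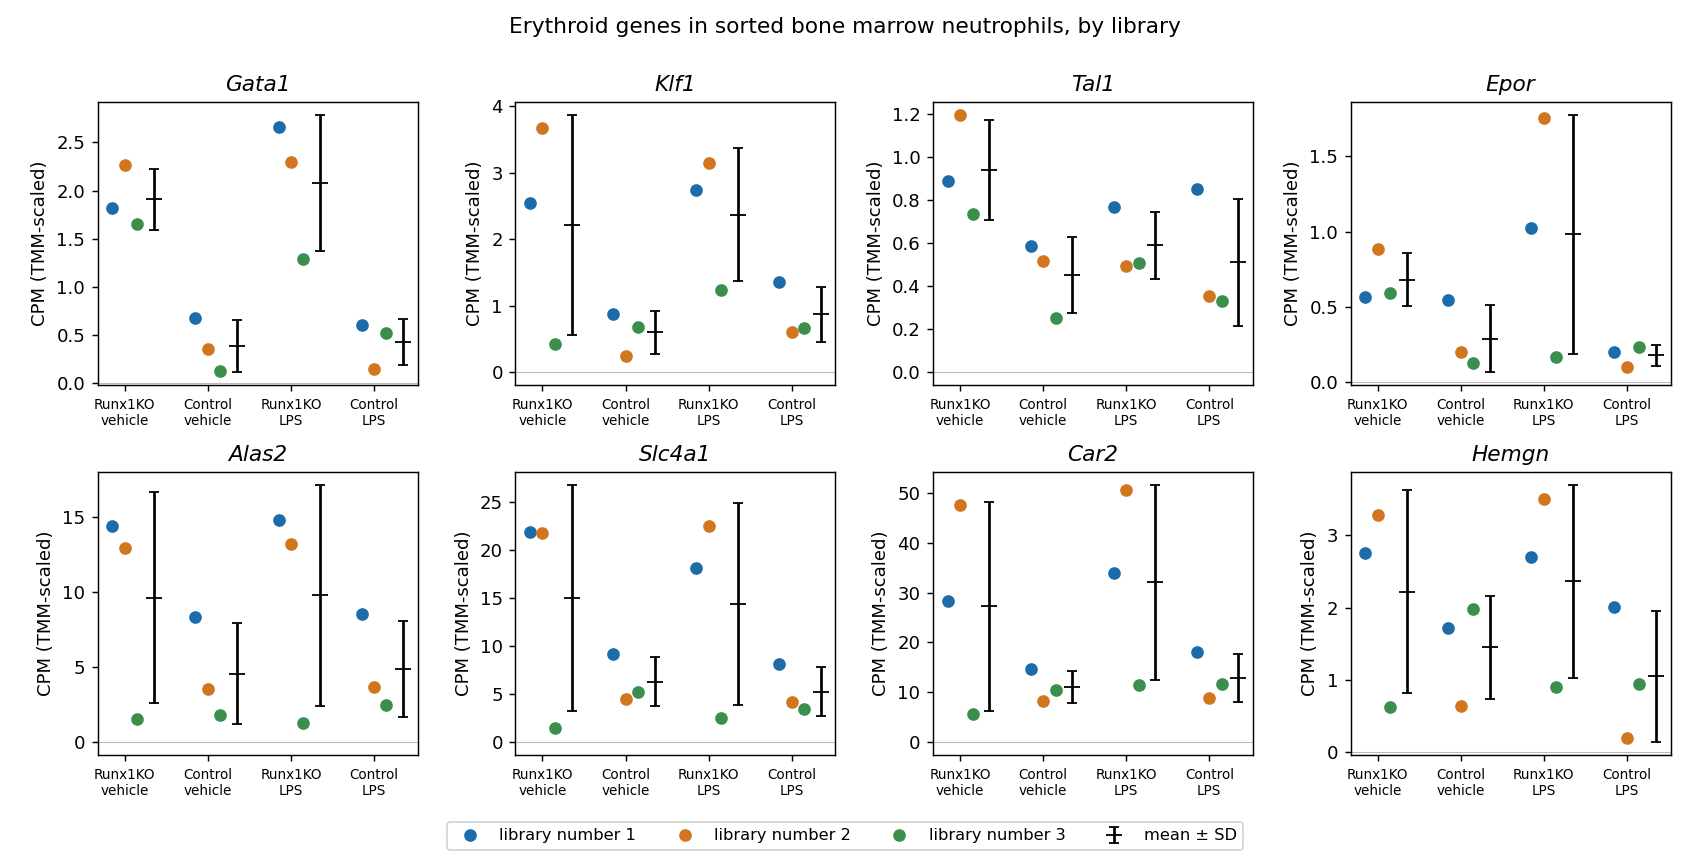
Level of the 8 members in each library (CPM on the vertical axis), with the 4 groups on the horizontal axis a point for each library and bars of the mean ± SD. Gata1 lies between 1.29 and 2.65 CPM in the 6 Runx1KO libraries and between 0.127 and 0.672 CPM in the 6 Control libraries; for Klf1, Alas2, Slc4a1, Car2 and Hemgn the Runx1KO libraries numbered 3 lie among or below the Control libraries.

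Alas2, whose enzyme makes the rate-limiting step of haem synthesis in red cell precursors, had 14.4, 12.9 and 1.54 CPM in Runx1KO vehicle libraries, against 8.32, 3.56 and 1.78 CPM in Control vehicle libraries. With LPS it had 14.8, 13.2 and 1.29 CPM in Runx1KO libraries, against 8.52, 3.64 and 2.49 CPM in Control libraries. Runx1KO library 3 was the lowest of the 6 libraries in each treatment. Its log2 fold change was 1.08 with vehicle (SE 0.92) and 1.00 with LPS (SE 0.92), or 1.24 and 1.22 without the libraries numbered 3. The strand setting of the counting is not known, so reads of Alas2 and of Apex2, which overlaps it on the opposite strand, cannot be told apart; Apex2 had 1.52 ± 0.697 CPM in Runx1KO and 2.17 ± 0.486 CPM in Control with vehicle.

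Slc4a1, which encodes the anion exchanger band 3 of the red cell membrane, had 21.9, 21.8 and 1.44 CPM in Runx1KO vehicle libraries, against 9.20, 4.48 and 5.16 CPM in Control vehicle libraries. With LPS it had 18.1, 22.5 and 2.47 CPM in Runx1KO libraries, against 8.12, 4.20 and 3.39 CPM in Control libraries. Here too Runx1KO library 3 lay below all Control libraries of its treatment. With vehicle the log2 fold change was 1.26 (SE 0.87), and after LPS it was 1.46 (SE 0.88), or 1.72 and 1.74 without the libraries numbered 3.

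Car2, a cytosolic carbonic anhydrase of red cells that other cell types also make, was the member with the most counts. It had 28.4, 47.7 and 5.68 CPM in Runx1KO vehicle libraries, against 14.6, 8.31 and 10.4 CPM in Control vehicle libraries. After LPS it reached 33.9, 50.7 and 11.5 CPM in Runx1KO libraries, against 18.1, 8.80 and 11.6 CPM in Control libraries. Runx1KO libraries 1 and 2 exceeded every Control library, and library 3 did not. Its log2 fold change was 1.29 with vehicle (SE 0.66) and 1.32 with LPS (SE 0.66), or 1.77 and 1.67 without the libraries numbered 3.

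Hemgn, which encodes a nuclear protein of blood-forming cells, had 2.75, 3.28 and 0.631 CPM in Runx1KO vehicle libraries, against 1.72, 0.639 and 1.99 CPM in Control vehicle libraries. The levels after LPS were 2.70, 3.50 and 0.900 CPM in Runx1KO libraries, against 2.00, 0.202 and 0.941 CPM in Control libraries. Library 3 of Runx1KO was low again, and the groups overlapped in both treatments. The log2 fold change was 0.61 with vehicle (SE 0.79) and 1.17 with LPS (SE 0.81), or 1.39 and 1.51 without the libraries numbered 3. Hemgn had the smallest difference between the genotypes of the 8 members with vehicle, and without the libraries numbered 2 its sign turned, to -0.14.

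All 8 members had a positive log2 fold change in both treatments, which the choice of members used, with a median of 1.24 with vehicle and 1.38 with LPS. Over all genes tested, 50.3% were positive with vehicle and 52.6% with LPS, with medians of 0.00 and 0.03. With vehicle, 3 of the 8 members (Gata1, Tal1 and Epor) had Runx1KO libraries that were all higher than the Control libraries, beside 700 of all genes (5.42%). With LPS, Gata1 alone of the 8 did so, beside 841 of all genes (6.51%). Over all genes, 297 (2.3%) were apart in this direction in both treatments, and Gata1 is the member among them. These counts come from the comparison that chose the members and nothing is read from them.

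Taken within a library number, the difference of Runx1KO minus Control in log2 CPM was positive for 8 of 8 members for number 1 and for number 2 with vehicle. With LPS it was positive for 7 of 8 for number 1, where Tal1 was the exception, and for 8 of 8 for number 2. For number 3 it was positive for 3 of 8 in each treatment: Gata1, Tal1 and Epor with vehicle, and Gata1, Klf1 and Tal1 with LPS. Gata1 differed by 3.01 with vehicle and 1.19 with LPS within number 3, while Slc4a1 differed by -1.78 and -0.44 and Alas2 by -0.19 and -0.90. Klf1 with vehicle (-0.59) and Epor with LPS (-0.33) were also negative within number 3. Gata1 was thus the member that was positive within every number in both treatments.

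**Figure D2:**
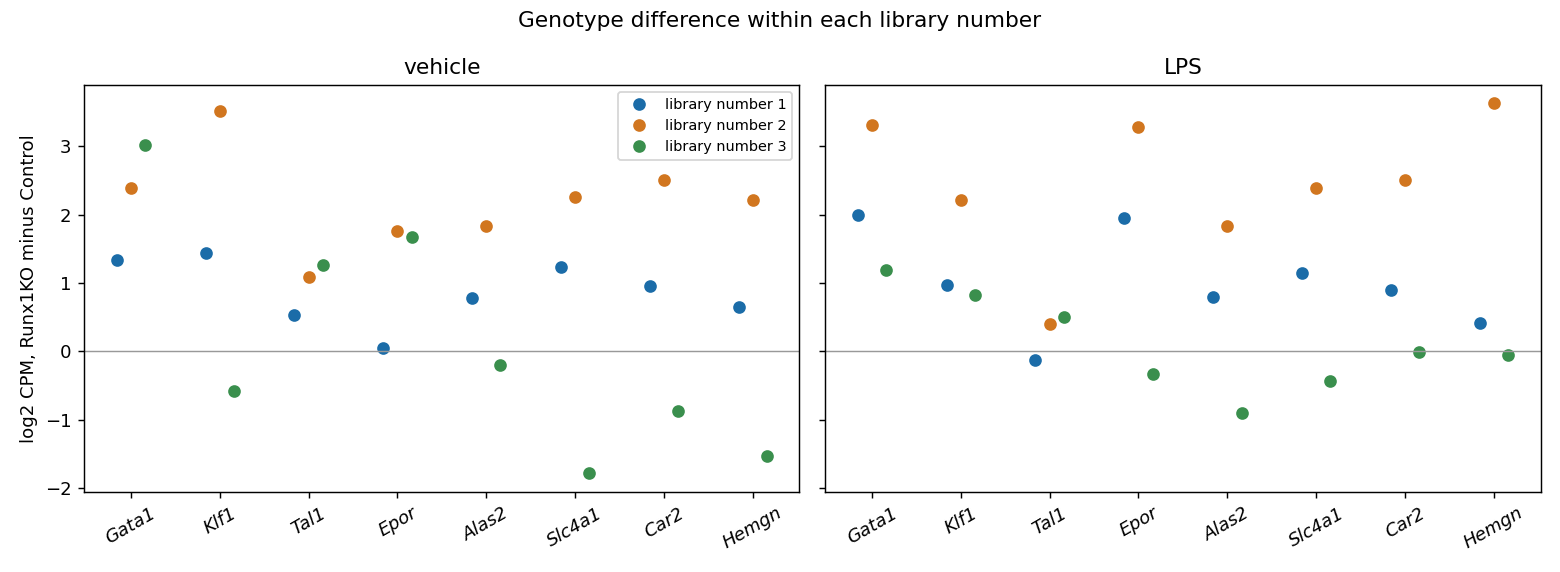
Difference of log2 CPM, Runx1KO minus Control, within each library number (colours) for the 8 members on the horizontal axis, with vehicle on the left and LPS on the right. Points of number 3 lie below 0 for 5 of the 8 members in each panel, and Gata1 lies above 0 for every number.

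Levels per length were compared with the length of merged exons. With vehicle, mean CPM per kilobase was highest for Car2, at 11.2 ± 8.67 in Runx1KO and 4.59 ± 1.32 in Control, then for Alas2, at 4.0 ± 2.93 in Runx1KO and 1.89 ± 1.41 in Control, and for Slc4a1, at 3.07 ± 2.41 in Runx1KO and 1.28 ± 0.522 in Control (SD, n = 3 each). In Runx1KO the order went on with Klf1 at 1.45 ± 1.08, Hemgn at 0.885 ± 0.558, Gata1 at 0.783 ± 0.130, Epor at 0.343 ± 0.0889 and Tal1 at 0.215 ± 0.0536 CPM per kilobase. In Control it went on with Hemgn at 0.577 ± 0.285, Klf1 at 0.392 ± 0.214, Gata1 at 0.158 ± 0.112, Epor at 0.146 ± 0.113 and Tal1 at 0.104 ± 0.0403 CPM per kilobase. Neighbours in this order mostly did not separate: in Runx1KO, Gata1 and Epor are the only neighbours whose means lie further apart than the sum of their SDs, and in Control no neighbours do. Car2, Alas2 and Slc4a1 thus stood highest per length in both genotypes, Hemgn lay below Klf1 in Runx1KO and above it in Control, and the Gata1 level in Runx1KO had the smallest SD relative to its mean.

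When member counts were scaled to 1000 adult globin counts of the same library, in place of CPM, Alas2, Slc4a1 and Car2 varied less between libraries. Alas2 ran from 3.31 to 9.24 counts per 1000 globin counts over the 12 libraries, a 2.79-fold range, and Slc4a1 from 6.34 to 18.3, a 2.89-fold range. Car2 ran from 12.6 to 37.1, a 2.94-fold range, whereas its CPM range was from 5.68 to 50.7. Klf1 ran from 0.623 to 3.17, a 5.08-fold range, and Hemgn spanned a 15.3-fold range. Gata1 spanned a 22.6-fold range, from 0.346 to 7.82 counts per 1000 globin counts. Tal1 spanned a 21.9-fold range and Epor a 17.8-fold range. Gata1 had 7.82 (95% exact Poisson interval 5.75 to 10.4, counting error only) in Runx1KO vehicle library 3 and 3.31 (2.10 to 4.97) in Runx1KO LPS library 3. In Runx1KO libraries 1 and 2 it had 0.740 to 1.37, against 0.346 to 1.45 in the 6 Control libraries. Relative to globin, Gata1 was within the Control range in Runx1KO libraries 1 and 2 and above it in Runx1KO libraries 3. In Runx1KO vehicle library 3 Tal1, at 3.49, and Epor, at 2.83, were also above their Control libraries, which reached 1.35 for Tal1 and 0.657 for Epor. In Runx1KO LPS library 3 both, at 1.30 and 0.432, were within the Control range. Klf1 was within its Control range in Runx1KO vehicle library 3, at 1.997. In Runx1KO LPS library 3 it was above that range, at 3.17 (1.985 to 4.797) against at most 2.405 (1.374 to 3.905), with overlapping Poisson intervals. On this scale the genotype log2 difference turned sign with vehicle for Alas2 (-0.18), Slc4a1 (-0.49), Car2 (-0.25) and Hemgn (-0.84), and with LPS for Alas2 (-0.54), Slc4a1 (-0.15), Car2 (-0.08) and Tal1 (-0.38). The part of other cells, or of RNA from red cells, in these levels was not tested.

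**Figure D3:**
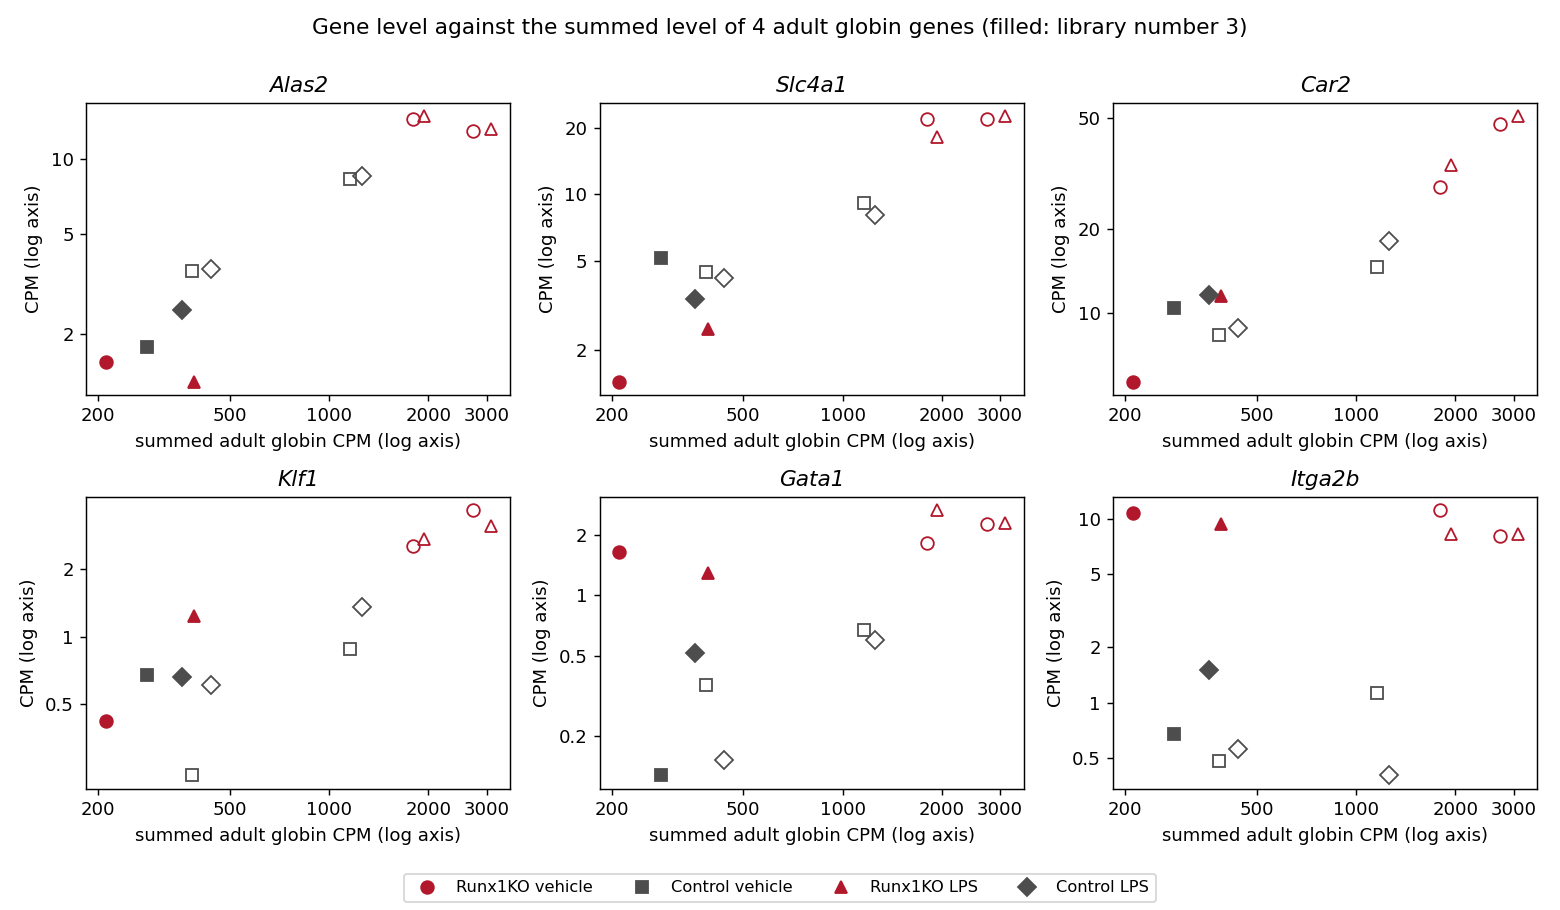
Level of 5 members and of the platelet gene Itga2b (CPM, log axis) against the summed level of 4 adult globin genes (CPM, log axis) in the 12 libraries, with filled symbols for number 3. Alas2, Slc4a1 and Car2 follow globin from 211 to 3096 CPM, while Gata1 in Runx1KO vehicle library 3 is at 1.65 CPM with globin at 211 CPM.

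The globin genes themselves were tested, with Runx1KO against Control log2 fold changes of 1.34 to 1.43 in both treatments and edgeR adjusted p of 0.685 to 0.942, and none of the 4 passed the test. Hba-a1 had 436 ± 354 CPM in Runx1KO and 162 ± 126 CPM in Control with vehicle. Hbb-bs had 413 ± 331 CPM in Runx1KO and 164 ± 129 CPM in Control, and Hba-a2 403 ± 324 CPM in Runx1KO and 152 ± 122 CPM in Control (SD, n = 3 each). Hba-a1 and Hba-a2 are near-identical copies, as are Hbb-bs and Hbb-bt, so the split of reads between the copies is uncertain. The embryonic globin genes Hba-x, Hbb-y, Hbb-bh1 and Hbb-bh2 had at most 3 counts and were not tested.

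Other genes of the pathway were taken from lists. With vehicle, 45 of all genes tested were called higher in Runx1KO than Control (0.348%) and 78 lower (0.604%), by edgeR's quasi-likelihood test. With LPS, 45 were called higher (0.348%) and 74 lower (0.573%). With the library number as a block, which these contrasts support, 114 genes were called higher and 201 lower with vehicle, and 117 higher and 185 lower with LPS. For each list, counts at an unadjusted p under 0.05 between the genotypes are given too. Their share over all genes was not computed for these contrasts, so nothing is read from those counts.

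Of 18 erythroid transcription factors and cofactors, none was called with vehicle, where 4 of the 18 had an unadjusted p under 0.05 and DESeq2 called 2 higher. With LPS 1 was called higher, and 13 of the 18 were positive, with a median log2 fold change of 0.50 beside 0.03 over all genes. The called gene was Bcl11a, a zinc-finger repressor of fetal globin genes that also acts in B cells, with 8.95, 11.01 and 14.1 CPM in Runx1KO LPS libraries against 2.91, 3.29 and 5.37 CPM in Control LPS libraries. Its log2 fold change was 1.55 (SE 0.33, edgeR adjusted p = 0.0497). It was called in 2 of the 12 fits that each left out a library, with an adjusted p of up to 0.219. With the block, Gfi1b, a repressor needed in red cell and platelet precursors, was called too with LPS (edgeR adjusted p = 0.0456). Lmo2, Ldb1, Gfi1b, Lyl1 and Bcl11a had all Runx1KO libraries above all Control libraries in both treatments, 5 of the 18 beside 2.3% of all genes. They were listed by this trait after their values were seen. The most abundant of the list were Nfe2, Klf3 and Zbtb7a, which did not pass: Nfe2 had 602 ± 127 CPM in Runx1KO and 614 ± 155 CPM in Control with vehicle, Klf3 213 ± 85.8 CPM in Runx1KO and 133 ± 47.1 CPM in Control, and Zbtb7a 83.0 ± 43.2 CPM in Runx1KO and 66.6 ± 39.7 CPM in Control.

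Of 22 genes of haem synthesis and iron uptake, none was called with vehicle, where 1 had an unadjusted p under 0.05 and DESeq2 and the block fit called 1 each. With LPS 1 was called higher, Blvrb, a reductase that acts on biliverdin and flavins and is abundant in red cells. It had 24.1, 33.1 and 27.0 CPM in Runx1KO LPS libraries against 8.82, 9.76 and 7.34 CPM in Control LPS libraries, with no overlap. Its log2 fold change with LPS was 1.70 (SE 0.32, edgeR adjusted p = 0.0338), and with vehicle the adjusted p was 0.118 without the block and 0.0207 with it. With LPS it was called in 5 of the 12 fits that each left out a library, with an adjusted p of up to 0.159. The most abundant genes of the list were the ferritin chains Fth1 and Ftl1 and the non-erythroid Alas1, none of which passed; with vehicle Fth1 had 11160 ± 7746 CPM in Runx1KO and 8235 ± 2792 CPM in Control, Ftl1 1122 ± 299.0 CPM in Runx1KO and 1663 ± 131 CPM in Control, and Alas1 225 ± 102 CPM in Runx1KO and 193 ± 114 CPM in Control.

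Of 22 tested genes of the red cell membrane and terminal red cell stages, none was called in either treatment, where 3 with vehicle and 5 with LPS had an unadjusted p under 0.05 and DESeq2 called 2 each. The median log2 fold change was 1.37 with vehicle and 1.45 with LPS, and 20 and 18 of the 22 were positive. Gypc, a glycophorin, had 2.71, 3.37 and 2.21 CPM in Runx1KO vehicle libraries against 1.01, 0.639 and 1.23 CPM in Control vehicle libraries, and Mfsd2b, a sphingosine-1-phosphate exporter of red cells and platelets, had 3.80, 3.90 and 1.86 CPM in Runx1KO against 1.05, 0.440 and 0.635 CPM in Control. These were the 2 of the 22 with all Runx1KO libraries above all Control libraries in both treatments, beside 2.3% of all genes. They were named after their values were seen, and neither passed the test (edgeR adjusted p = 0.118 and 0.162 with vehicle). Both were high in all 3 Runx1KO libraries, unlike the products among the members, for which Runx1KO library 3 was low. The most abundant were Mkrn1, Bnip3l and Epb41, which many cell types express and which did not pass; with vehicle Mkrn1 had 184 ± 59.1 CPM in Runx1KO and 172 ± 52.6 CPM in Control, Bnip3l 111 ± 15.6 CPM in Runx1KO and 133 ± 8.83 CPM in Control, and Epb41 54.7 ± 12.4 CPM in Runx1KO and 44.9 ± 6.41 CPM in Control.

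Of 12 tested genes of erythropoietin receptor signalling, and of 11 tested relatives of the members such as other GATA, KLF and carbonic anhydrase genes, none was called in either treatment. At an unadjusted p under 0.05 there was 1 gene of each list with vehicle, and 1 signalling gene and 3 relatives with LPS; DESeq2 called 1 of each list with vehicle and 1 relative with LPS. The median log2 fold change was 0.15 with vehicle and 0.27 with LPS for signalling, and 0.32 and 0.49 for the relatives.

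Markers of other cells that use GATA1 differed between the genotypes in the same libraries. Of 14 tested megakaryocyte and platelet genes, 5 were called higher with vehicle and 3 with LPS, by edgeR; with the block 8 and 6 were called higher and 1 lower with LPS. Without the libraries numbered 3, none was called with vehicle and 1 with LPS. Itga2b, the platelet integrin chain called in all 12 fits that each left out a library, had 11.1, 8.07 and 10.8 CPM in Runx1KO vehicle libraries against 1.13, 0.480 and 0.677 CPM in Control vehicle libraries, a log2 fold change of 3.70 (SE 0.49, edgeR adjusted p = 0.00501). The other called genes with vehicle were Gp5, Pf4, Treml1 and Ppbp, and with LPS Itga2b, Gp5 and Treml1. With vehicle Gp5 was called in all 12 of those fits, and Pf4 and Treml1 in 10 each. With LPS Gp5 was called in 8 and Treml1 in 7, with an edgeR adjusted p of up to 0.12 and 0.113. Pf4, a platelet chemokine, had 11.03 ± 2.27 CPM in Runx1KO and 0.364 ± 0.249 CPM in Control with vehicle, and Gp5, a platelet glycoprotein, 2.13 ± 1.20 CPM in Runx1KO from 156 counts and 1 count in all of Control. Treml1, a platelet receptor, had 233 counts in Runx1KO and 2 in Control with vehicle. The summed level of the list was 67.9 to 71.1 CPM in Runx1KO and 36.6 to 41.4 CPM in Control with vehicle, and 58.2 to 71.8 CPM in Runx1KO and 34.1 to 42.5 CPM in Control with LPS. In both treatments 12 of the 14 were higher in every Runx1KO library than in any Control library, beside 2.3% of all genes. This was Gata1's own pattern, and it held in Runx1KO libraries 3, where globin was low. The pattern was not particular to platelet genes, since 5 of the 18 erythroid factors and 3 of 8 progenitor genes had it too. Itgb3 went the other way, lower in every Runx1KO library than in any Control library in both treatments. With vehicle it had 16.6, 19.3 and 16.8 CPM in Runx1KO libraries against 25.4, 33.5 and 26.5 CPM in Control libraries. In Control, Itgb3 made up most of the summed level. The part of platelet-lineage RNA in the level of Gata1 was not tested.

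The called basophil and mast cell genes were lower. Of 7 tested, edgeR called 2 lower in Runx1KO with vehicle and 1 with LPS; limma-voom called none in either treatment, and edgeR none without the libraries numbered 3. With the block edgeR called 4 lower with vehicle and 2 with LPS, and DESeq2 3 and 2. The summed level without Hdc, an enzyme gene that neutrophils express strongly, was 0.162 to 0.665 CPM in Runx1KO and 5.63 to 25.0 CPM in Control with vehicle. With LPS that sum was 0.731 to 1.11 CPM in Runx1KO and 3.95 to 25.4 CPM in Control. Prss34 and Mcpt8, basophil proteases, had 0 counts in all 6 Runx1KO libraries, and with vehicle 643 and 185 counts in Control; with vehicle the edgeR adjusted p was 0.0197 for Prss34 and 0.0444 for Mcpt8, called in 8 and 3 of the 12 fits that each left out a library. With LPS the called gene was Prss34, with 655 counts in Control. Of 7 eosinophil genes, 1 was called lower with vehicle, Ear2, an eosinophil ribonuclease, at 0.140 ± 0.243 CPM in Runx1KO and 11.9 ± 7.26 CPM in Control (edgeR adjusted p = 0.0416; called in 4 of those 12 fits), and none with LPS, where 2 had an unadjusted p under 0.05 and DESeq2 called 1. With the block edgeR called Ear2 lower in both treatments (adjusted p = 0.00612 with vehicle and 0.00814 with LPS). Ccr3, of the same list, went the other way with vehicle. It had 2.10, 5.19 and 8.41 CPM in Runx1KO libraries against 0.798, 0.400 and 1.02 CPM in Control libraries. With the block edgeR called it higher with vehicle (adjusted p = 0.0484). DESeq2 called 1 eosinophil gene higher and 1 lower with vehicle. The eosinophil sum was 9.55 to 28.7 CPM in Runx1KO and 10.99 to 36.0 CPM in Control with vehicle. Of the lineages that use GATA1, the platelet markers called without the block were thus higher and the called basophil markers lower in Runx1KO. The part of either in the member levels was not tested.

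Among the remaining lists, 1 of 8 progenitor genes was called higher with vehicle, Procr, with 1.97 ± 0.477 CPM in Runx1KO and 0.111 ± 0.0504 CPM in Control (edgeR adjusted p = 0.00612). In both treatments 3 of the 8, Meis1, Myct1 and Procr, had all Runx1KO libraries above all Control libraries, beside 2.3% of all genes. They were listed by this trait after their values were seen. Of the B lineage genes, Ms4a1 was called lower in both treatments, and the T cell gene Cd3d was called lower in both, as 1 of 5 tested T and NK cell genes. None of the 8 tested myeloid transcription factors, 15 neutrophil genes and 6 tested genes of the macrophages that surround red cell precursors was called by edgeR over the 12 libraries with TMM scaling and no block. At an unadjusted p under 0.05 there were 2 neutrophil genes in each treatment, and 1 myeloid factor and 1 macrophage gene with LPS; DESeq2 called 1 neutrophil gene with vehicle, and 1 myeloid factor and 1 macrophage gene with LPS. The neutrophil gene closest to a call was Ly6g, the marker of the sort, named after its values were seen. It had 106, 154 and 152 CPM in Runx1KO vehicle libraries against 418, 418 and 381 CPM in Control vehicle libraries, with a log2 fold change of -1.56 (SE 0.33, edgeR adjusted p = 0.0521). With the block Ly6g was called lower with vehicle (edgeR adjusted p = 0.0334), and limma-voom, and edgeR with RLE size factors, with no filter on low counts or with only the 2 vehicle groups, each called 1 neutrophil gene lower with vehicle. With LPS Ly6g had 351, 156 and 158 CPM in Runx1KO libraries against 471, 395 and 400.0 CPM in Control libraries. The macrophage sum was 331 to 827 CPM in Runx1KO and 252 to 522 CPM in Control with vehicle, and 282 to 1753 CPM in Runx1KO and 281 to 696 CPM in Control with LPS. Runx1KO LPS library 3 was the highest, and in it Adgre1, whose protein the sort selected against, had 1220 CPM, against 20.1 and 318 CPM in Runx1KO LPS libraries 1 and 2 and 16.4 to 207 CPM in Control LPS libraries. The part of these levels in those of the members was not tested.

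**Figure D4:**
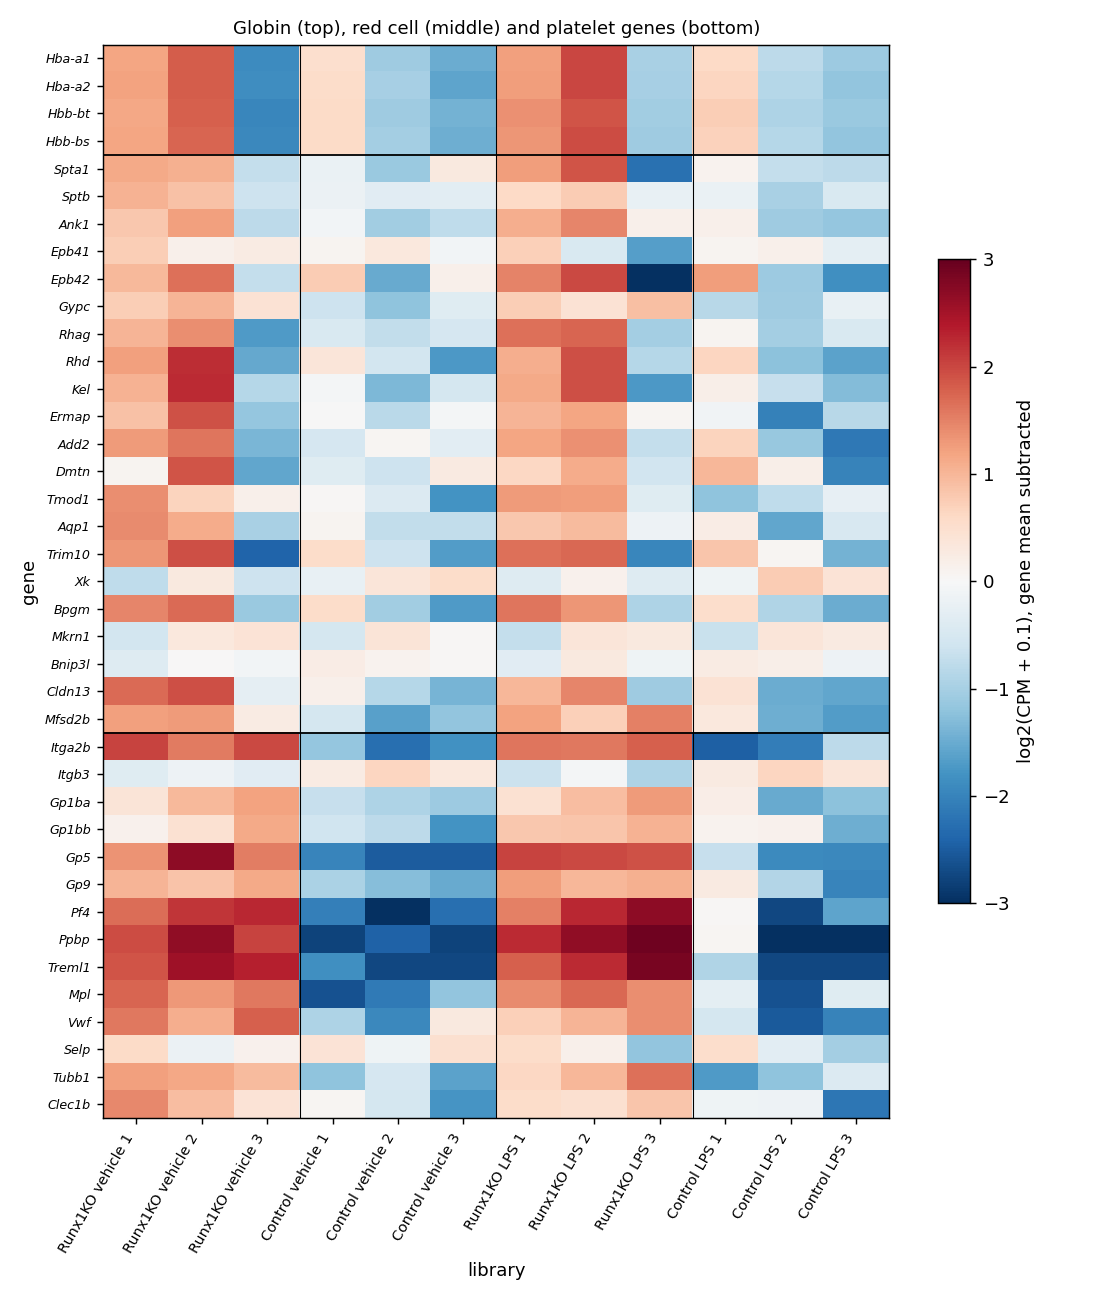
Globin, red cell and platelet genes (rows, in that order from the top) in the 12 libraries (columns), as log2(CPM + 0.1) with the mean of each gene subtracted. Globin genes and most red cell genes, such as Rhag, are high in Runx1KO libraries 1 and 2 and low in Runx1KO libraries 3. Most platelet genes, such as Itga2b, at 10.8 CPM with vehicle, are high in Runx1KO libraries 3, while Itgb3 is low there.

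The effect of LPS was not used to choose the members and was tested over all genes. In Runx1KO cells no gene passed at an adjusted p of 0.05 (0%), while 676 of the 12917 genes (5.23%) had an unadjusted p under 0.05; limma-voom called 0 and DESeq2 called 1, which was lower with LPS. In Control cells none passed (0%), with 78 genes (0.604%) at an unadjusted p under 0.05 and 0 by DESeq2 and limma-voom. For the difference of the LPS responses none passed (0%), with 77 genes (0.596%) at an unadjusted p under 0.05 and 0 by DESeq2 and limma-voom. In Control and for the difference, these shares lay below what a threshold of 0.05 gives with no effect at all, so the test without the block was conservative there. Of the 8 members, 0 had an unadjusted p under 0.05 in any of these 3 comparisons, and a small change could be missed.

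Gata1 had 2.08 ± 0.705 CPM with LPS and 1.91 ± 0.316 CPM with vehicle in Runx1KO cells, a log2 fold change of 0.13 (SE 0.57, edgeR adjusted p = 0.994). In Control cells it had 0.424 ± 0.239 CPM with LPS and 0.386 ± 0.274 CPM with vehicle, also 0.13 (SE 0.64). The difference between these responses was -0.01 (SE 0.71), so a change of Gata1 by LPS, in either genotype, was not detectable beyond the spread of libraries.

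For LPS over vehicle Klf1 was at 0.11 (SE 0.70) on the log2 scale in Runx1KO cells and at 0.54 (SE 0.75) in Control cells. Tal1 had the most negative value of the members in Runx1KO, -0.66 (SE 0.54, edgeR adjusted p = 0.888), where it was lower with LPS in 3 of 3 library numbers, beside 0.17 (SE 0.55) in Control. Epor was at 0.53 (SE 0.74) in Runx1KO, higher with LPS in 2 of 3 numbers, and at -0.68 (SE 0.85) in Control, higher with LPS in 1 of 3. The difference of the responses was -0.83 (SE 0.77) for Tal1 and 1.21 (SE 1.12) for Epor, the lowest and the highest of the 8, with an edgeR adjusted p of 0.9999 for every member. Tal1 and Epor thus differed in sign between the genotypes, by a little more than 1 SE of the difference, and neither difference passed the test.

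Among the products, Car2 was the gene that stood higher with LPS in 3 of 3 numbers in both genotypes, by 0.24 (SE 0.65) in Runx1KO and 0.21 (SE 0.66) in Control on the log2 scale. The SEs given for LPS come from the fit without the block, so they include the spread between library numbers. Within numbers 1, 2 and 3, Car2 differed by 0.256, 0.088 and 1.01 in Runx1KO and by 0.306, 0.082 and 0.153 in Control. Slc4a1 was at -0.06 (SE 0.85) in Runx1KO and -0.26 (SE 0.87) in Control, and Hemgn at 0.10 (SE 0.79) in Runx1KO and -0.46 (SE 0.81) in Control. Alas2 was at 0.03 (SE 0.90) in Runx1KO and 0.10 (SE 0.92) in Control. Within a number Alas2 differed little between treatments in Runx1KO cells, at 14.8, 13.2 and 1.29 CPM with LPS and 14.4, 12.9 and 1.54 CPM with vehicle. Other products differed more within some numbers. LPS minus vehicle in log2 CPM was 1.01 for Car2 and 0.75 for Slc4a1 in Runx1KO number 3. These values rest on scaling, since the 2 libraries had the most extreme TMM factors, 1.20 with vehicle and 0.700 with LPS. Before scaling, Slc4a1 had 41 counts with vehicle and 44 with LPS there, and Car2 162 and 205, of 23812630 and 25443980 total counts. For Hemgn the difference was -1.32 and -1.01 in Control numbers 2 and 3. Over the 8 members the log2 fold change with LPS ran from -0.66 to 0.53 in Runx1KO, with a median of 0.10 beside 0.03 for all genes, and from -0.68 to 0.54 in Control, with a median of 0.12 beside -0.02 for all genes. Across all other settings tried, the smallest adjusted p of any member was 0.492 in Runx1KO, that of Tal1, and 1 in Control.

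**Figure D5:**
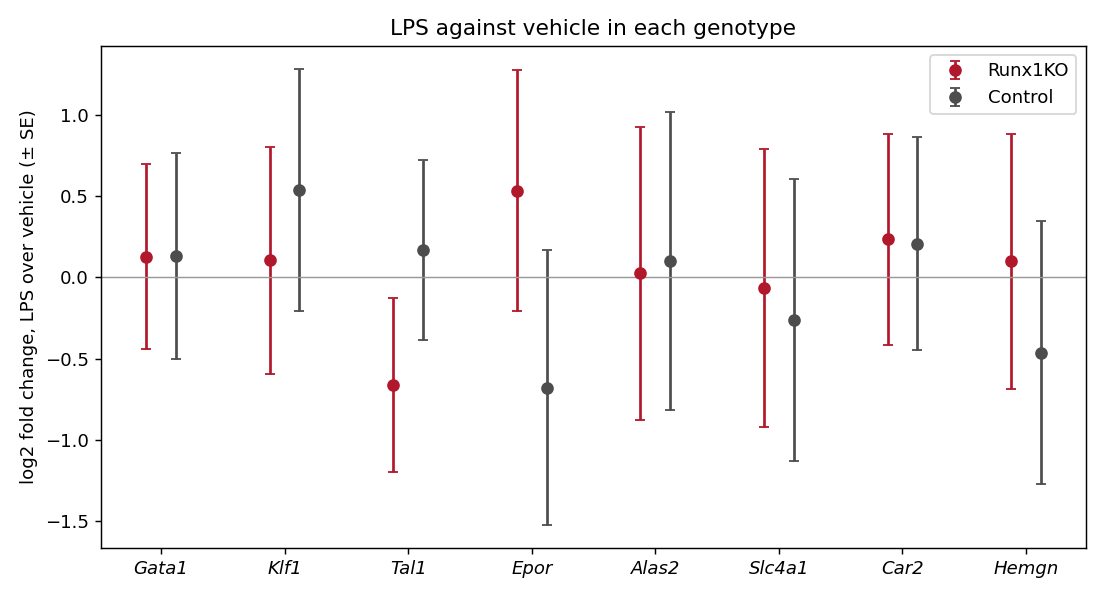
Log2 fold change of LPS over vehicle for the 8 members, in Runx1KO (left point of each pair) and Control cells (right point). Bars are 1 SE from the edgeR fit without the library number block, and include the spread between library numbers. Values run from -0.68 for Epor in Control to 0.54 for Klf1 in Control, and none passes the test.

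The genes whose profile over the 12 libraries was most like that of Gata1, by the root mean square difference of centred log2 CPM, were Ifi208 (0.602), Dglucy (0.608), Gm1673 (0.611), Ralgps2 (0.626), Gm10874 (0.643), Ifi27l2a (0.648), Mfsd2b (0.651) and Fam162a (0.652). None of the other 7 members was among them. Tal1 and Epor could not be, because their mean log2 CPM lay below the minimum of 0 set for this search, so their absence says nothing on likeness. With a prior count of 0.5 in place of 2, 5 of the 8 named genes stayed. The genes most like Car2 were closer to it, among them Rhag (0.286), Rab3il1 (0.316), Prdx2 (0.358), Klf1 (0.364), Cpox (0.376), Mgst3 (0.404) and Aqp1 (0.420). Rhag and Aqp1 encode red cell membrane proteins and Cpox an enzyme of haem synthesis, and all of those named stayed with the other prior count. Likeness was measured over 12 libraries that share genotype and library number, and carries no test.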

How the data were processed

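The data were whole-number read counts per gene as the authors deposited them, without normalization. Per the submitters' processing notes, the aligner was STAR 2.6.0a, the genome build mm9 and the counter featureCounts. Not given in the sources used here are the annotation release, the strand setting and the version of featureCounts. Per the labels' protocols, sorted cells were cultured, RNA was column-purified and libraries were made by an ultra-low input method. Gene names were matched by identifier for 32620 of 37310 genes, and 0 columns were left out.

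Genes were kept with filterByExpr, scaled by TMM (factors 0.700 to 1.20) and tested with edgeR 4.0.16's quasi-likelihood test in 1 model of 4 groups in R 4.3.3, with 5 contrasts and Benjamini-Hochberg adjustment over 12917 genes at a threshold of 0.05. The lowest factor was that of Runx1KO LPS library 3 and the highest that of Runx1KO vehicle library 3. CPM uses TMM-scaled library sizes, and log2 CPM a prior count of 2. The test script was checked on simulated data. For LPS in Runx1KO it recovered 52% of changes of 4-fold and 95% of changes of 16-fold. Between the genotypes with vehicle it recovered 48% and 94%. Changes were simulated only in genes above a minimum mean count, which Tal1 and Epor did not reach. Recovery for genes counted as low as these was not measured. Alternatives were DESeq2 1.42.0, limma-voom (limma 3.58.1), other scalings, no filter, a library number block, fits of only the groups compared, and libraries left out. Libraries of a group differed by more than sampling noise (lowest chi-square per degree of freedom 68.2). Same-numbered libraries deviated together between the genotypes (r 0.374 to 0.479 with vehicle, 0.429 to 0.565 with LPS) and between treatments in Control (0.394 to 0.667). Between treatments in Runx1KO, r was 0.314 for number 1 and 0.537 for number 2, but 0.006 for number 3. The pairing comes from these correlations, not from the labels.

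The members and lists were chosen with earlier results of these data known. Named genes are the members, up to 4 called genes per list, direction and contrast, the 3 most abundant of each red cell list, and the 8 most like Gata1 or Car2 at a mean log2 CPM no lower than 0. Exon lengths are those of GENCODE on GRCm38 and promoters those of RefSeq on GRCm38.p6, neither of them the build of the alignment, and were used by gene name. The values of 2 genes that the rule names or the lists hold are not reported here.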

Additional observations from a re-analysis of the deposited data

How the results depend on the processing

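The number of genes called between Runx1KO and Control depended on the fit. Leaving out a replicate or a library gave 0 to 56 genes higher and 1 to 115 lower with vehicle, and 0 to 56 higher and 2 to 80 lower with LPS. DESeq2 called 158 higher and 228 lower with vehicle and 175 higher and 226 lower with LPS. Library size alone gave 50 lower with vehicle, and fitting only the groups compared gave 13 higher and 14 lower with LPS. With the replicate block these counts were 114 and 201 with vehicle and 117 and 185 with LPS. For the LPS comparisons and their difference the count was 0 throughout, also with the block, except for 1 gene lower in Runx1KO by DESeq2. Scaling by library size alone put the all-gene median with LPS at -0.28 in Runx1KO and -0.14 in Control.

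Among members, signs turned for Hemgn with vehicle without replicate 2 (-0.14) and for Tal1 with LPS without Runx1KO LPS replicate 1 (-0.04) or Control LPS replicate 3 (-0.02). Per 1000 adult globin counts, chosen after seeing the data, they turned with vehicle for Alas2 (-0.18), Slc4a1 (-0.49), Car2 (-0.25) and Hemgn (-0.84) and with LPS for Tal1 (-0.38), Alas2 (-0.54), Slc4a1 (-0.15) and Car2 (-0.08). Hemgn with vehicle was 1.39 without replicate 3, and Tal1 with LPS reached 0.78 without Control LPS replicate 1. Gata1 ranged from 1.88 to 3.02 with vehicle and 1.81 to 2.71 with LPS over the other settings. The cause was not tested. Depth limits the factors, Epor and Hemgn, whose lowest counts in a library were 3 for Gata1, 6 for Klf1, 6 for Tal1, 2 for Epor and 4 for Hemgn.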

Other observations

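Gata2, the GATA factor of progenitors and mast cells, overlapped between the genotypes in both treatments, unlike Gata1. It had 1.94, 0.931 and 1.58 CPM in Runx1KO vehicle libraries against 1.18, 0.599 and 2.16 CPM in Control vehicle libraries, and a log2 fold change of 0.18 (SE 0.69, edgeR adjusted p = 0.9998). With LPS it had 2.18, 1.03 and 2.59 CPM in Runx1KO libraries against 1.10, 0.152 and 1.51 CPM in Control libraries, higher in Runx1KO within 3 of 3 numbers, and a log2 fold change of 1.06 (SE 0.71, edgeR adjusted p = 0.708). It was named after its values were seen.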
